A study of Mus musculus with 6 samples.

Results

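The neurotrophins and their receptors described here are 6 genes, *Ntf3*, *Ntf5*, *Bdnf*, *Ntrk2*, *Ntrk3* and *Ngfr*, taken by symbol from the 54532 genes of the liver count table. They were chosen by their counts in the same comparison of g*Spns1*-cKO with control livers that is described below, so their values are given as a description and no test of them is used as support.

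SPNS1 is a lysosomal transporter of lysolipids, and the study asked what its loss does to lipid handling in mice. In g*Spns1*-cKO mice an exon in both copies of *Spns1* is flanked by loxP sites, and the tamoxifen-dependent recombinase Rosa26Cre-ERT2 deletes that exon after birth in the whole body, which shifts the reading frame, so every cell type of the liver is a target and not hepatocytes alone. RNA-Seq was made from whole livers of 3 control mice, labelled wild type, and 3 g*Spns1*-cKO mice, labelled SPNS1 KO, all on a C57BL/6 background, with 1 library per liver and no pooling stated. The study's methods name *Spns1* fl/fl littermates as the controls, so the loxP sites would be shared by both groups, and neither tamoxifen in the controls nor the age at harvest was given for these samples. P-values measure the spread between these livers.

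Neurotrophins are small secreted growth factors, best known for keeping neurons alive and for guiding the growth of their fibres. Each is made as a longer proneurotrophin that proteases cut to the mature form. The mature factors bind Trk receptor tyrosine kinases with some preference: brain-derived neurotrophic factor (*Bdnf*) and neurotrophin 4 (*Ntf5*) bind TrkB (*Ntrk2*), and neurotrophin 3 (*Ntf3*) binds TrkC (*Ntrk3*). All of them, and the uncut forms with higher affinity, also bind the p75 neurotrophin receptor (*Ngfr*), which has no kinase. In liver, p75 is known from hepatic stellate cells, the vitamin A-storing cells of the sinusoid wall, and from nerve fibres.

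Libraries held 30350002 to 35295611 counts, and 15449 genes passed the filter on low counts. A gene could pass that filter through the counts of a single group. *Spns1* itself was counted 1008, 1562 and 875 times in the controls and 642, 1175 and 698 times in the g*Spns1*-cKO group. These counts cover the whole gene, and reads from the exons that are not deleted can remain in them, so they check the deletion only in part. The *Spns1* log2 fold change was -0.87 (SE 0.25, adjusted p = 0.0300 by edgeR's quasi-likelihood test), but the call was lost when libraries were scaled by their totals alone, where the log2 fold change was -0.43 (adjusted p = 0.213), or by upper quartiles (-0.74, adjusted p = 0.0635). It was also lost without control replicate 2 (adjusted p = 0.0785), without g*Spns1*-cKO replicate 1 (adjusted p = 0.091) or without g*Spns1*-cKO replicate 3 (adjusted p = 0.083). The tissue matched its label in that the hepatocyte markers *Alb*, *Ttr*, *Apoa1*, *Cps1* and *Hnf4a* summed to 92000 to 106000 CPM (the usual counts per unit of sequencing depth, here on library sizes scaled by edgeR's TMM factors) in control livers and to 55200 to 64200 CPM in g*Spns1*-cKO livers. In bulk tissue, fewer cells of a type and less RNA per cell cannot be told apart.

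The genotypes differed widely. Of the 15449 genes tested, 41.8% were called at an adjusted p under 0.05, 21.3% as higher and 20.5% as lower in g*Spns1*-cKO livers, and in 54.1% the CPM of the groups did not overlap. With libraries scaled by their totals alone, 7289 genes were called higher and 970 lower, so that 88.3% of calls were higher in place of 50.9%, and the median log2 fold change over all genes moved from 0.014 to 0.457. Of the 6 members, 5 passed the filter, 3 of these were called higher (*Ntf3*, *Ntf5* and *Ngfr*), 1 lower (*Bdnf*) and 1 was not called (*Ntrk2*), while *Ntrk3* had too few counts. The groups did not overlap in the 4 called members. Because the members were chosen on this comparison, nothing is read from these counts.

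Of the 5 members that passed the filter, neurotrophin 3 differed most. *Ntf3* (ENSMUSG00000049107, GRCm38 chr6:126101412-126166910, minus strand) was counted 12, 35 and 8 times in the controls and 165, 352 and 247 times in the g*Spns1*-cKO group. The control counts of *Ntf3* alone did not meet the filter on low counts, so it passed only through the g*Spns1*-cKO group. Every g*Spns1*-cKO liver was above every control liver, and control replicate 2 stood above the other controls. As CPM this was 0.627 ± 0.445 (SD, n = 3) against 6.68 ± 2.32 (SD, n = 3), which gave 3.38 as log2 fold change (SE 0.45). The value depended on that control liver, since without control replicate 2 the log2 fold change was 4.14, and without each other library it lay between 3.06 and 3.58. Within a group the highest *Ntf3* library was 3.6 times the lowest in controls and 2.0 times in g*Spns1*-cKO livers.

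The annotation gives *Ntf3* 3 transcripts, all coding, with 5 distinct exons in all, and the counts do not separate them. RefSeq lists starts at 126166744 and 126164960, and the bases before each are shown because this member differed most and is annotated with both starts. In all promoter sequences below, capitals mark a match, on either strand, to any of 5 motifs that were searched. These were the E-box CACGTG, which lysosomal transcription factors of the MiT/TFE family are known to bind, and the cyclic AMP response element TGACGTCA. The others were the GC box GGGCGG, the EGR element GCGTGGGCG and the loose AP-1 pattern TGANTCA, where N is any base.
Ntf3 start 126166744, RefSeq GRCm38.p6 chr6:126166911-126166994, minus strand: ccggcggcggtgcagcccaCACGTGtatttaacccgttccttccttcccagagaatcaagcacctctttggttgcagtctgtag
Ntf3 start 126164960, RefSeq GRCm38.p6 chr6:126164961-126165210, minus strand: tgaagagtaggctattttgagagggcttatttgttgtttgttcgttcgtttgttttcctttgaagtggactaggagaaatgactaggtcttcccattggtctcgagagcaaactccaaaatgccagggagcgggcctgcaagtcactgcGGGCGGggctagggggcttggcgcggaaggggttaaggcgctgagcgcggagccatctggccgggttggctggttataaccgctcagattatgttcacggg
The first window was shortened to 84 bases because the rest of it, with a GC box at 39 bases before the start, lies within exons of *Ntf3*. Its E-box lies 225 bases before the start, and 6.02% of the 32851 windows of 250 bases before RefSeq starts hold that motif. The second window has 1 GC box at 95 bases before the start, a motif that 32.7% of windows hold. A match describes letters and is not evidence of binding.

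Neurotrophin 4 was near the limit of detection in control livers. *Ntf5* (ENSMUSG00000074121, chr7:45413695-45417179, plus strand) was counted 2, 2 and 1 times in the controls and 13, 14 and 21 times in the g*Spns1*-cKO group. No control liver reached the floor of 3 counts and every g*Spns1*-cKO liver exceeded it. *Ntf5* thus passed the filter on low counts only through the g*Spns1*-cKO group. The summed counts of 5 and 48 gave a ratio of 7.11 per TMM-scaled count, with an exact 95% interval of 2.85 to 22.9 that covers counting error only. The mean level was 0.0585 ± 0.0168 CPM (SD, n = 3) in control livers and 0.420 ± 0.0988 CPM (SD, n = 3) in g*Spns1*-cKO livers. Its 2 transcripts, both coding, overlap no other gene with a count.

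Brain-derived neurotrophic factor was the one member that was lower. *Bdnf* (ENSMUSG00000048482, chr2:109674700-109727007, plus strand) was counted 86, 40 and 59 times in the controls and 23, 33 and 28 times in the g*Spns1*-cKO group. The groups did not overlap, but the lowest control and the highest g*Spns1*-cKO liver were 40 and 33 counts. The mean was 2.23 ± 0.884 CPM (SD, n = 3) against 0.737 ± 0.112 CPM (SD, n = 3), which gave -1.59 as log2 fold change (SE 0.36), and over all settings tried it lay between -1.87 and -1.14. Controls were the more variable group for *Bdnf*, with the highest library 2.35 times the lowest, against 1.35 times in g*Spns1*-cKO livers.

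*Bdnf* has 11 annotated transcripts, all coding, that begin at different first exons and share the exon that encodes the protein, so the counts do not tell which start was used. RefSeq gave 7 windows for it, and the window at start 109677032 is shown because no other *Bdnf* window matched the AP-1 pattern.
Bdnf start 109677032, RefSeq GRCm38.p6 chr2:109676782-109677031, plus strand: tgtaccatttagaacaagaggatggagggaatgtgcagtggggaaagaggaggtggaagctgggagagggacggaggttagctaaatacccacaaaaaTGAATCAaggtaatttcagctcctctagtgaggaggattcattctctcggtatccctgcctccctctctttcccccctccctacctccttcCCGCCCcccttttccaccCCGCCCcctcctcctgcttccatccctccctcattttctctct
The match TGAATCA to the loose AP-1 pattern lies 145 bases before the start, and 6.75% of all windows hold a match to that pattern. The window also has 2 GC boxes, at 55 and 37 bases before the start.

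**Figure D1:**
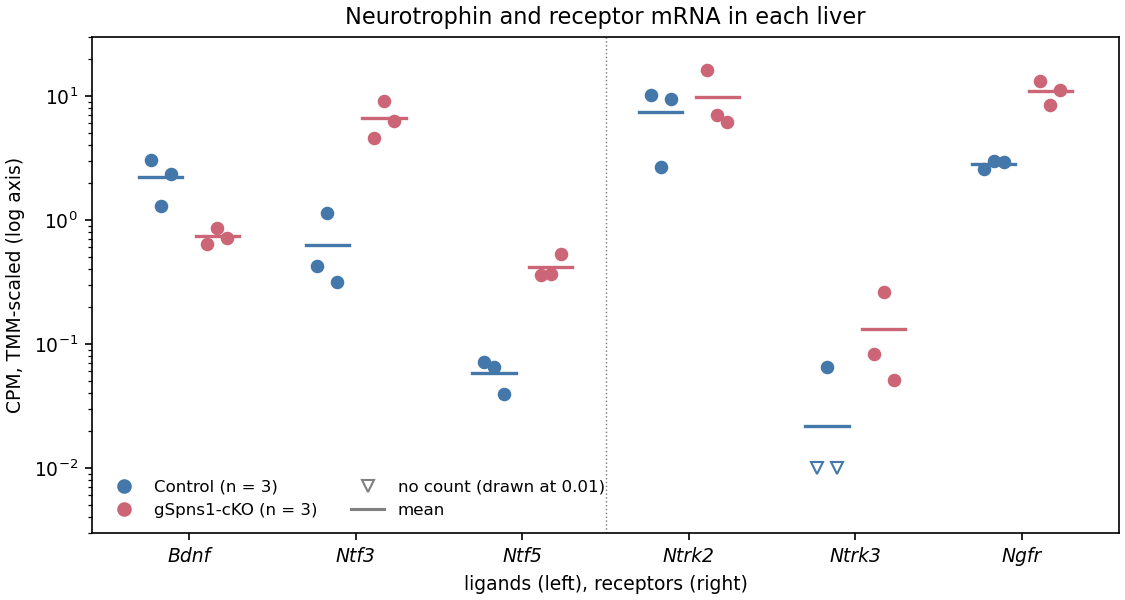
Level of each of the 6 members in every library, in CPM on a log axis, with a point per liver and a bar at the group mean. *Ntf3*, *Ntf5* and *Ngfr* lay higher in all 3 g*Spns1*-cKO livers, *Bdnf* lay lower, and *Ntrk2* and *Ntrk3* overlapped; livers with no count are drawn at 0.01.

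The p75 receptor was higher in g*Spns1*-cKO livers. *Ngfr* (ENSMUSG00000000120, chr11:95568818-95587735, minus strand) was counted 72, 91 and 74 times in the controls and 476, 327 and 437 times in the g*Spns1*-cKO group. Every g*Spns1*-cKO liver was far above every control liver, and the controls lay close together. The mean was 2.81 ± 0.219 CPM (SD, n = 3) against 11.0 ± 2.36 CPM (SD, n = 3), which gave 1.96 as log2 fold change (SE 0.20), and the settings tried moved it between 1.80 and 2.40. *Ngfr* has 1 annotated transcript. RefSeq gave 1 start for *Ngfr*, at 95587698, and the window before it is shown because it was the richest in GC boxes of the 11 windows found for members.
Ngfr start 95587698, RefSeq GRCm38.p6 chr11:95587736-95587948, minus strand: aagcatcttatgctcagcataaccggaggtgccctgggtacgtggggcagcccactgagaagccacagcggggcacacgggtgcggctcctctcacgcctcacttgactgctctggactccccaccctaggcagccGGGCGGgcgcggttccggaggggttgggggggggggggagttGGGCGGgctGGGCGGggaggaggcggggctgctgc
The sequence is given without the 37 bases that lie in the gene's own exon. In the whole window of 250 bases there were 4 GC boxes, 3 of them in the bases shown, and 70.4% of its bases were G or C.

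TrkB did not separate the genotypes. *Ntrk2* (ENSMUSG00000055254, chr13:58806569-59133970, plus strand) was counted 284, 82 and 237 times in the controls and 587, 270 and 241 times in the g*Spns1*-cKO group. Control replicate 2 was the lowest and g*Spns1*-cKO replicate 1 the highest, and the other libraries overlapped. The means were 7.38 ± 4.10 CPM (SD, n = 3) and 9.83 ± 5.64 CPM (SD, n = 3), and the log2 fold change of 0.42 (SE 0.64) turned to -0.16 without g*Spns1*-cKO replicate 1. The spread within groups was the widest of the tested members, with the highest library 3.79 times the lowest in controls and 2.66 times in g*Spns1*-cKO livers. The gene has 10 annotated transcripts, 7 of them coding, and forms of TrkB with and without the kinase are known, which counts per gene cannot tell apart. The RefSeq window of *Ntrk2* held none of the 5 motifs.

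TrkC was barely detected. *Ntrk3* (ENSMUSG00000059146, chr7:78175959-78738012, minus strand) was counted 0, 2 and 0 times in the controls and 3, 10 and 2 times in the g*Spns1*-cKO group. The groups overlapped, and 10 of the 15 g*Spns1*-cKO counts came from replicate 2. The ratio of the summed counts was 5.56 with an exact 95% interval of 1.29 to 50.1 for counting error only, and a floor of 3 counts corresponded to 0.0763 to 0.119 CPM in these libraries. The preferred receptor of neurotrophin 3 was thus at or near the limit of detection in the same livers in which *Ntf3* was counted at 165 to 352.

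Among co-receptors of the sortilin family 1 gene was called. *Sorl1*, a sorting receptor, rose from 2.53 ± 0.314 CPM (SD, n = 3) to 10.8 ± 2.73 CPM (SD, n = 3), which gave 2.09 as log2 fold change (SE 0.22, adjusted p = 7.23e-05). Sortilin itself (*Sort1*), the partner of p75 in binding proneurotrophins, was at 18.2 ± 2.07 CPM (SD, n = 3) in control livers and 18.2 ± 1.73 CPM (SD, n = 3) in g*Spns1*-cKO livers (log2 fold change 0.00, SE 0.13, adjusted p = 0.993), but with scaling by library totals alone its log2 fold change was 0.44 (adjusted p = 0.018). *Sorcs2* had a log2 fold change of 0.05 (SE 0.46, adjusted p = 0.946), *Sorcs3* at most 5 counts in any library and *Sorcs1* none. *Nradd*, a p75-related protein, had a log2 fold change of 0.39 (SE 0.29, adjusted p = 0.298), and 0.84 (adjusted p = 0.0305) with scaling by library totals alone. *Kidins220*, a scaffold of Trk and p75, had -0.13 (SE 0.11, adjusted p = 0.346), which turned to 0.31 (adjusted p = 0.025) with scaling by library totals alone. The Nogo receptor partners of p75 were low or absent, with 4 to 17 counts of *Lingo1* per library and none of *Rtn4r*. Of this list of 9 co-receptors and partners, 5 were tested, 1 rose and none fell. The share called was 20%, against 41.8% over all genes tested. The median log2 fold change was 0.05 against 0.014 over all genes, and with scaling by library totals alone 4 rose.

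Levels of different genes can be compared only per length, and for this the CPM were divided by the deposited gene length to give FPKM (CPM per kilobase of gene). In control livers *Ntf3* was at 0.366 ± 0.26 FPKM, *Bdnf* at 0.359 ± 0.142 and *Ntf5* at 0.0221 ± 0.00632, each as mean ± SD over 3 livers. *Ntf3* and *Bdnf* did not differ beyond their spread there. In g*Spns1*-cKO livers the order of these ligands was *Ntf3* (3.90 ± 1.35 FPKM), *Ntf5* (0.158 ± 0.0372) and *Bdnf* (0.119 ± 0.0181), and the last pair did not differ beyond their spread. Without division by length *Bdnf* was above *Ntf5* there, at 0.737 against 0.420 CPM. Among the receptors *Ngfr* came first in both groups, at 0.816 ± 0.0636 FPKM in controls and 3.18 ± 0.684 FPKM in g*Spns1*-cKO livers. *Ntrk2* followed at 0.382 ± 0.212 and 0.509 ± 0.292 FPKM, and *Ntrk3* was last at 0.000718 ± 0.00124 and 0.00436 ± 0.00374 FPKM. *Ntf3* moved from the 51.1 to the 76.6 percentile of the genes with a count, *Ngfr* from the 59.0 to the 73.9 percentile, and *Bdnf* from the 50.9 to the 36.5 percentile.

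The mixture of the member ligands differed between the groups. Of the summed FPKM of *Ntf3*, *Bdnf* and *Ntf5*, *Ntf3* made up 32.4%, 74.0% and 32.1% in controls against 91.8%, 95.1% and 92.1% in the g*Spns1*-cKO group. *Bdnf* made up 64.1%, 23.3% and 65.3% in control livers and 2.46% to 3.53% in the g*Spns1*-cKO group. *Bdnf* was thus the largest share in 2 of the 3 control livers, and *Ntf3* in control replicate 2 and in every g*Spns1*-cKO liver. These shares rest on whole annotated lengths, 6217 bases for *Bdnf*, 1714 for *Ntf3* and 2653 for *Ntf5*. The length used for *Bdnf* lowers its share if shorter transcripts are the ones present. The sum over these ligands was 0.746 ± 0.162 FPKM (SD, n = 3) in controls against 4.18 ± 1.37 FPKM (SD, n = 3) in the g*Spns1*-cKO group.

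Among the member receptors p75 was the largest share in every liver of both groups. *Ngfr* made up 58.7%, 85.9% and 63.6% of the summed FPKM of *Ngfr*, *Ntrk2* and *Ntrk3* in controls against 81.9%, 86.9% and 91.0% in the g*Spns1*-cKO group, so the groups overlapped. *Ntrk2* overlapped too, at 13.8% to 41.3% against 8.96% to 18.0%. The sum over these receptors was 1.20 ± 0.178 FPKM (SD, n = 3) in controls against 3.69 ± 0.93 FPKM (SD, n = 3) in the g*Spns1*-cKO group. These shares rest on the genes' whole annotated length, and the annotated lengths of *Ntrk2* (19292 bases) and *Ntrk3* (30170 bases) lower their FPKM if shorter transcripts are the ones present.

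**Figure D2:**
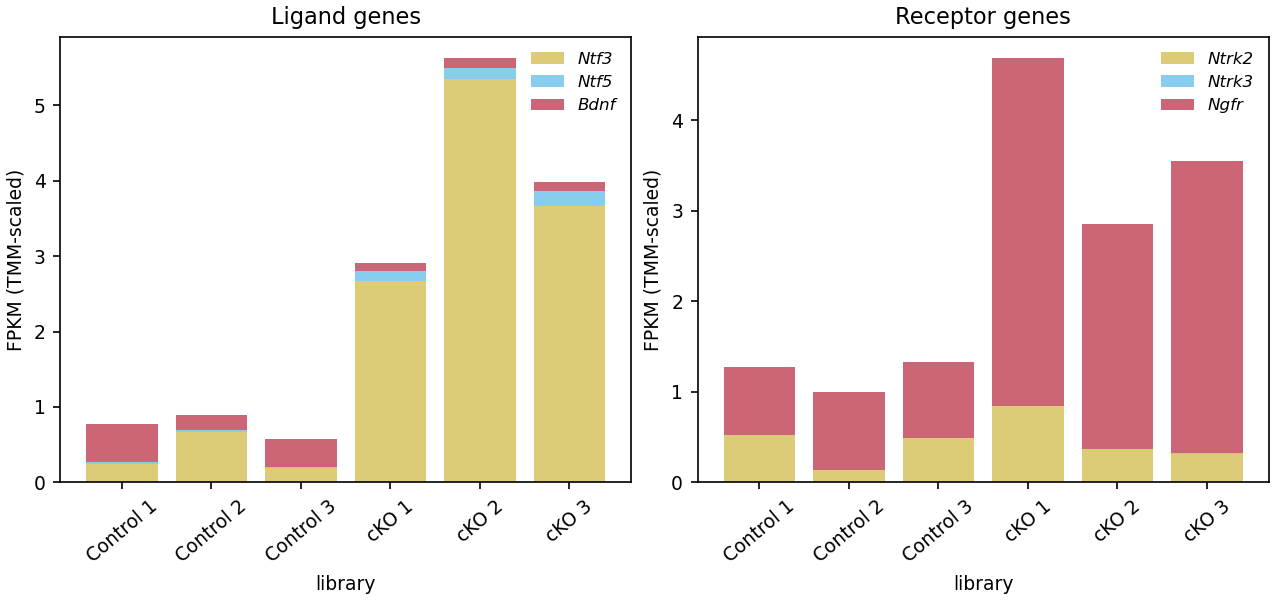
FPKM of the 3 member ligands (left) and the 3 member receptors (right) stacked for each of the 6 livers, with cKO standing for g*Spns1*-cKO and the height of a bar for the summed FPKM. The ligand sums are 0.574 to 0.897 in control and 2.91 to 5.63 in g*Spns1*-cKO livers, where *Ntf3* fills most of each bar, and *Ngfr* fills most of each receptor bar in both groups.

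Proteases that cut proneurotrophins changed in both directions. Of 12 listed, 9 were tested, 3 rose and 4 fell, with a median log2 fold change of 0.34. The share called was 77.8%, against 41.8% over all genes tested. With scaling by library totals alone 5 rose and none fell. *Mmp7*, matrilysin, was counted 2, 8 and 0 times in the controls and 115, 509 and 124 times in the g*Spns1*-cKO group. This gave 5.75 as log2 fold change (SE 1.09). *Mmp7* passed the filter on low counts only through the g*Spns1*-cKO group. It is counted among the genes that rose but is only described here. The *Mmp7* log2 fold change was 7.31 without control replicate 2 and 4.72 without g*Spns1*-cKO replicate 2, the liver with 509 counts. The plasminogen activators *Plat* and *Plau*, which start the plasmin cascade, rose with log2 fold changes of 2.12 (SE 0.38, adjusted p = 0.00170) and 1.65 (SE 0.26, adjusted p = 0.000741). Plasminogen itself (*Plg*), the substrate of these activators, was lower, at 1840 ± 286 CPM (SD, n = 3) in controls and 1290 ± 73.2 CPM (SD, n = 3) in g*Spns1*-cKO livers (log2 fold change -0.51, SE 0.16, adjusted p = 0.0291). The *Plg* call was lost under scaling by library totals alone (-0.06, adjusted p = 0.750) or upper quartiles (adjusted p = 0.0861), without control replicate 2 (adjusted p = 0.0873), without control replicate 3 (adjusted p = 0.112) or without g*Spns1*-cKO replicate 3 (adjusted p = 0.0884). The proprotein convertase *Pcsk6* fell from 130 ± 6.54 CPM (SD, n = 3) to 79.2 ± 9.01 CPM (SD, n = 3), which gave -0.71 as log2 fold change (SE 0.12, adjusted p = 0.00101), a call lost under scaling by library totals alone (-0.27, adjusted p = 0.0667).

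Of 45 adaptors and kinases downstream of Trk receptors, 44 were tested, 7 rose and 11 fell, with a median log2 fold change of -0.04. The share called, 40.9%, was near that of all genes, and with scaling by library totals alone 25 rose and 1 fell. *Shc2*, a neuronal Shc adaptor, was counted 0, 7 and 1 times in the controls and 181, 69 and 130 times in the g*Spns1*-cKO group. This gave 5.11 as log2 fold change (SE 0.73). *Shc2* passed the filter on low counts only through the g*Spns1*-cKO group. It is counted among the genes that rose but is only described here. Without control replicate 2, which held 7 of the control counts, the *Shc2* log2 fold change was 7.22, and without control replicate 1 it was 4.53. The phospholipase *Plcg2* rose by 1.99 (SE 0.34, adjusted p = 0.00127) on the log2 scale. *Mapk7*, the kinase ERK5, rose by 1.08 (SE 0.22, adjusted p = 0.00325) on the log2 scale. The calcium-dependent kinase *Camk4* had a log2 fold change of -1.26 (SE 0.29, adjusted p = 0.00582).

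Of 22 adaptors and effectors of p75, 21 were tested, 4 rose and 4 fell, with a median log2 fold change of -0.01. The share called, 38.1%, was near the 41.8% over all genes tested. With scaling by library totals alone 11 rose and none fell. *Bex1*, which encodes a protein that binds p75, passed the filter on low counts only through the g*Spns1*-cKO group. It is counted among the genes that rose but is only described here. *Bex1* was counted 0, 0 and 2 times in the controls and 13, 34 and 36 times in the g*Spns1*-cKO group. Its relative *Bex3* rose by 1.16 (SE 0.25, adjusted p = 0.00469) on the log2 scale. *Arhgdia* and *Arhgdib*, which encode inhibitors of small GTPases, had log2 fold changes of 0.98 (SE 0.12, adjusted p = 0.000214) and 1.13 (SE 0.18, adjusted p = 0.000790). *Maged1*, which also encodes a protein that binds p75, had a log2 fold change of -0.47 (SE 0.14, adjusted p = 0.0212). That call was lost under scaling by library totals (-0.03, adjusted p = 0.865) or upper quartiles (adjusted p = 0.0695), without control replicate 2 (adjusted p = 0.0799), without g*Spns1*-cKO replicate 2 (adjusted p = 0.0678) and without g*Spns1*-cKO replicate 3 (adjusted p = 0.0543).

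Genes that neurotrophins are known to induce within minutes to hours in neurons, and which many other stimuli also induce, were mostly higher. Of 20 listed, 16 were tested, 10 rose and none fell, with a median log2 fold change of 1.48. The share called was 62.5%, against 41.8% over all genes tested. *Egr2* was counted 3, 2 and 3 times in the controls and 33, 46 and 43 times in the g*Spns1*-cKO group. This gave 3.44 as log2 fold change (SE 0.47). *Egr2* passed the filter on low counts only through the g*Spns1*-cKO group. It is counted among the genes that rose but is only described here. The AP-1 subunit *Fos* was counted 36, 15 and 12 times against 195, 170 and 154 times, which gave 2.61 as log2 fold change (SE 0.37, adjusted p = 0.000434), and 3.23 without control replicate 1. The stress-induced factor *Atf3* rose by 2.48 (SE 0.25, adjusted p = 6.34e-05) and the urokinase receptor *Plaur* by 2.23 (SE 0.33, adjusted p = 0.000547) on the log2 scale. *Egr1*, with 101 to 443 counts in control livers and 572 to 1778 in g*Spns1*-cKO livers, did not pass the test (log2 fold change 1.76, SE 0.78, adjusted p = 0.146). Among the settings tried it was called only with a replicate block in the same test (1.82, adjusted p = 0.000282).

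Genes of other neurotrophic families were called about as often as genes in general. Of the 17 listed genes of the GDNF and CNTF families and related factors 9 were tested, 1 rose and 3 fell. The share called, 44.4%, was near the 41.8% over all genes tested. Their median log2 fold change was -0.07, and with scaling by library totals alone 4 rose and 2 fell. Midkine (*Mdk*), a heparin-binding growth factor, was counted 13, 5 and 15 times in the controls and 47, 67 and 73 times in the g*Spns1*-cKO group. This gave 2.03 as log2 fold change (SE 0.45). The control counts of *Mdk* alone did not meet the filter on low counts, so it passed only through the g*Spns1*-cKO group. It is counted among the genes that rose but is only described here. *Lifr*, the receptor subunit for leukaemia inhibitory factor, fell from 253 ± 7.18 CPM (SD, n = 3) to 81.8 ± 4.37 CPM (SD, n = 3), which gave -1.63 as log2 fold change (SE 0.11, adjusted p = 7.35e-06). Neurturin (*Nrtn*), a GDNF-family ligand, had a log2 fold change of -1.59 (SE 0.39, adjusted p = 0.00873). *Gfra1*, the GDNF co-receptor, had a log2 fold change of -0.70 (SE 0.19, adjusted p = 0.0153), a call lost with scaling by library totals alone (-0.25, adjusted p = 0.284), without control replicate 2 (adjusted p = 0.0622), without control replicate 3 (adjusted p = 0.0599) or without g*Spns1*-cKO replicate 3 (adjusted p = 0.0589).

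**Figure D3:**
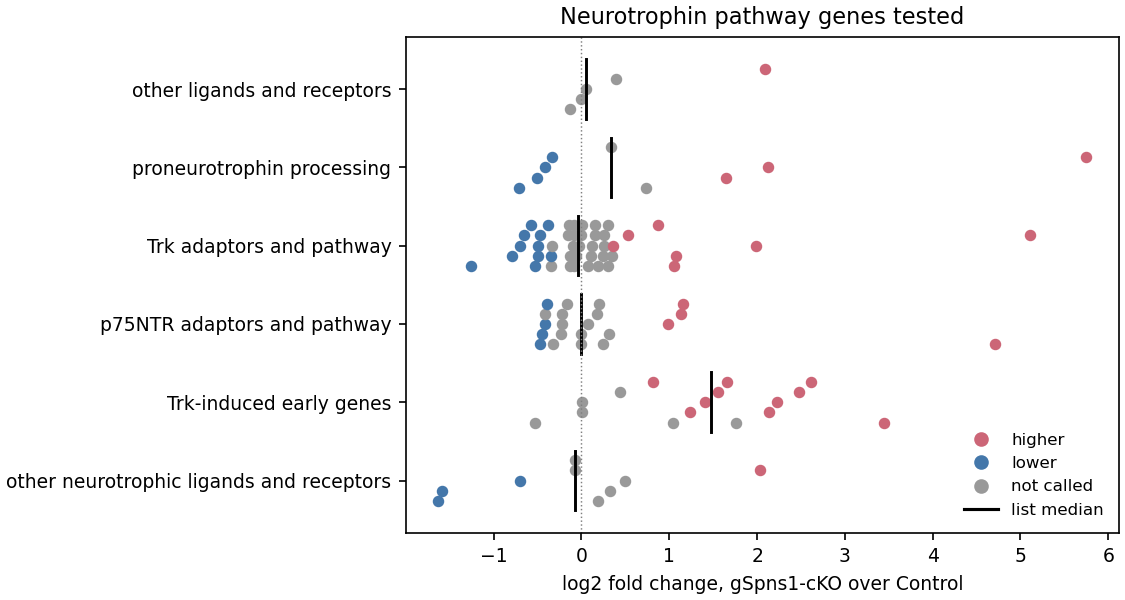
Log2 fold change (g*Spns1*-cKO over control) of every tested gene in each of the 6 pathway lists, with a point per gene, red or blue where it was called higher or lower at an adjusted p under 0.05 and grey where it was not, and a bar at each list's median. The members are not drawn. The early genes lie mostly above 0 with a median of 1.48, while the Trk and p75 lists lie on both sides of 0.

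Markers of several liver cell types also differed between the genotypes. Over all genes tested, the groups did not overlap in 54.1%, higher or lower. Hepatic stellate cell markers summed to 234 to 281 CPM in control livers and 397 to 403 CPM in g*Spns1*-cKO livers, with 7 of 8 higher in every g*Spns1*-cKO liver, among them *Pdgfrb* (log2 fold change 1.82, SE 0.17, adjusted p = 4.51e-05) and *Lrat* (1.22, SE 0.33, adjusted p = 0.0278, not called without control replicate 2, control replicate 3 or g*Spns1*-cKO replicate 3, with adjusted p = 0.0911, 0.0659 and 0.0665). All 8 macrophage markers were higher in every g*Spns1*-cKO liver, with sums of 93.4 to 136 against 349 to 453 CPM. Cholangiocyte markers, 7 of 8 higher in every g*Spns1*-cKO liver, summed to 59.5 to 77.8 against 187 to 300 CPM. Markers of endothelium and smooth muscle, 6 of 8 higher in every g*Spns1*-cKO liver, summed to 83.3 to 94.6 against 148 to 177 CPM. Of the 5 hepatocyte markers, 1 (*Cps1*) was higher in every g*Spns1*-cKO liver, while *Alb*, *Ttr* and *Apoa1* were lower in every one. *Hnf4a* overlapped, and only *Alb* and *Apoa1* were called, both lower. The marker sums use TMM-scaled library sizes and were not examined with other scalings.

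Markers of Schwann cells and nerve fibres, the classical sites of p75, were scarce. Their sum was 2.85 to 4.06 CPM in control livers and 5.73 to 6.61 CPM in g*Spns1*-cKO livers, 2 of 12 were higher in every g*Spns1*-cKO liver, and *S100b*, *Snap25*, *Th* and *Dbh* had no count in any library. *Sox10*, which defines Schwann cells, had 4 counts in g*Spns1*-cKO replicate 3 and none elsewhere. *Mbp*, a myelin gene, was the only one of the 5 tested that passed, with a log2 fold change of 1.75 (SE 0.28, adjusted p = 0.000922), and the median of the 5 was -0.06. Low or absent mRNA of these markers does not measure how many nerve fibres were present. The part of each cell type in the values of the members was not tested.

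**Figure D4:**
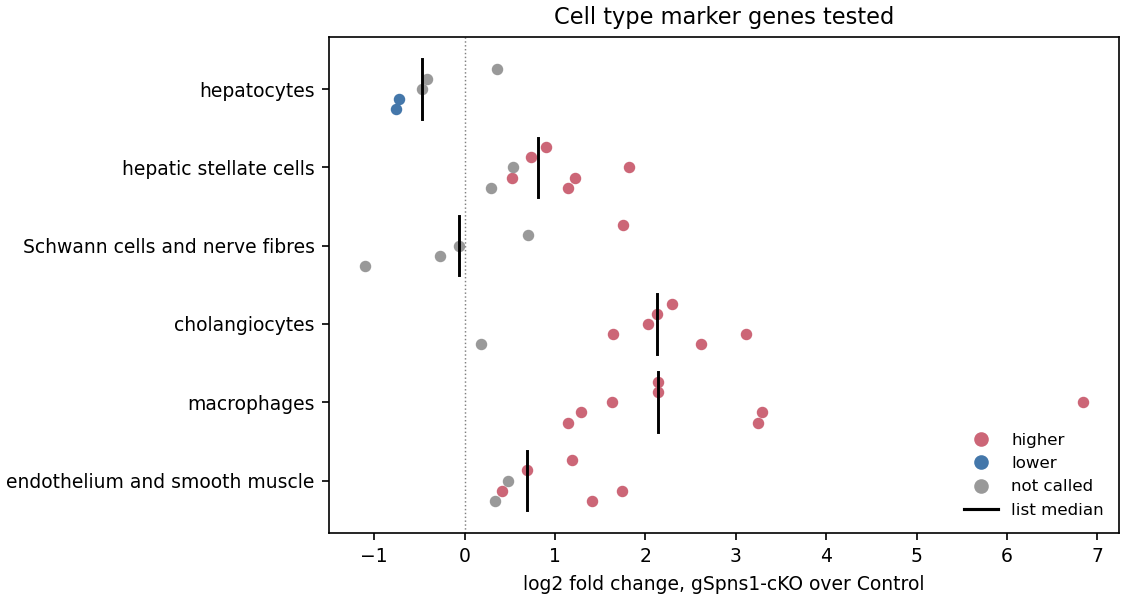
Log2 fold change (g*Spns1*-cKO over control) of every tested marker gene of 6 groups of liver cell types, with a point per gene, red or blue where it was called higher or lower at an adjusted p under 0.05 and grey where it was not, and a bar at each list's median. All 8 macrophage markers lie above 0 with a median of 2.14, the hepatocyte median is -0.47, and the 5 Schwann cell and nerve markers tested have a median of -0.06.

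Within the family the levels did not all follow each other from liver to liver. Over the 6 livers, Pearson's r of log2(CPM + 0.1) was 0.94 between *Ntf3* and *Ntf5*, 0.91 between *Ntf3* and *Ngfr*, -0.92 between *Ntf3* and *Bdnf* and 0.02 between *Ntf3* and *Ntrk2*. These values are dominated by the difference between the genotypes, which all points of a group share. After each group's mean was taken away, r was 0.22, -0.38, -0.55 and -0.90 for the same pairs.

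Many other genes had a pattern like that of the members. Of 12917 genes that averaged 1 CPM or more, 558 had an r over 0.95 with *Ntf3*, led by *Arhgef17*, *Plxna4* and *Fam180a* (0.998 to 0.999). For *Ngfr* there were 801, led by *Sirpa*, *Slc39a4* and *Stab2* (0.998), and for *Ntf5* 789, led by *Cyp46a1*, *Mmp12* and *Slc7a1* (0.999). For *Bdnf* there were 189, led by *Hibadh*, *Rps27l* and *Atg3* (0.995 to 0.998), and for *Ntrk2* only 7, led by *Mycl*, *Gm14325* and *2500004C02Rik* (0.978 to 0.987). Once the group means were taken away, the leading genes were *Pigf*, *Lemd2* and *Ptpn13* for *Ntf3*, *Exoc6b*, *Arf3* and *Mfsd12* for *Ngfr*, *AU041133*, *Btf3l4* and *Atp5f1* for *Bdnf*, *Gm7887*, *Gm9761* and *Hcn3* for *Ntf5*, and *4933411K16Rik*, *Eif3j1* and *Gm28437* for *Ntrk2* (0.993 to 0.998), none of which led before. These correlations describe 6 libraries and carry no test.

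Of the nearest neighbours on the chromosomes 5 could be tested, and of these *Mrpl46* and *Phb* were called, both lower. Over all genes tested 41.8% were called, 20.5% as lower, so nothing is read from this count. The values of neighbours with other scalings were not examined. With scaling by library totals alone the median log2 fold change over all genes moved from 0.014 to 0.457. *Agtpbp1* and *Mrpl46* lie beside *Ntrk2* and *Ntrk3*, which have no called direction to compare with. The other neighbours had too few counts for a test. Whether members and neighbours change together was not tested. *Ruvbl2*, 4.58 kb from *Ntf5* on the opposite strand, had a log2 fold change of 0.12 (SE 0.14, adjusted p = 0.546), and *Lin7c*, 164 kb after *Bdnf*, had -0.06 (SE 0.12, adjusted p = 0.727). *Agtpbp1*, 312 kb after *Ntrk2*, had -0.06 (SE 0.16, adjusted p = 0.807), and *Mrpl46*, 37.2 kb after *Ntrk3*, fell by 0.46 on the log2 scale (SE 0.11, adjusted p = 0.00647). *Phb*, 79.2 kb after *Ngfr*, had a log2 fold change of -0.47 (SE 0.12, adjusted p = 0.0101), and *Nxph3* on the other side was counted 0, 0 and 0 times in the controls and 6, 2 and 13 times in the g*Spns1*-cKO group. *Kcna7*, 3.93 kb before *Ntf5*, had 12 counts in g*Spns1*-cKO replicate 3 and at most 3 in any other library. Beside *Ntf3*, *Ano2* had 4 to 13 counts per library, and *Kcna5* had 0 in control livers and 2 to 7 in g*Spns1*-cKO livers. No member overlaps another gene with a count except *Ntrk2*, whose overlap *C630044B11Rik* had 1 count in all.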

How the data were processed

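Poly(A) RNA of 6 mouse livers, 3 control and 3 g*Spns1*-cKO, was sequenced by a service company. The authors deposited whole-number read counts per gene, FPKM values and gene lengths in a single table with 1 column per library. Per the labels, reads were processed with fastp, HISAT2 2.0.5 and featureCounts 1.5.0-p3 on mm10. Whether counting used strand is not given in the sources used here. Columns with the authors' own fold changes and p-values were not used, and 0 value columns were unmatched. The deposited FPKM served only to check the recomputed FPKM (CPM over deposited gene length), of which they were 0.982 to 0.997 times.

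The count analysis used edgeR 4.0.16 under R 4.3.3 (filterByExpr, TMM, robust quasi-likelihood test, Benjamini-Hochberg adjustment over 15449 genes, threshold 0.05), which was first tested on simulated data. The standard error is the size of the log2 fold change divided by the square root of F. Alternatives were DESeq2 1.42.0 as size factors or as the test, library totals, upper quartiles, counts of at least 1 in any or at least 10 in every library, a replicate block and leaving out each library. Depths were 30350002 to 35295611 counts, and intervals cover counting error only.

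Members, lists and markers were chosen with earlier results of these data known. The genes named are the members and *Spns1*, the co-receptors listed, from each pathway list the 4 called genes of largest absolute log2 fold change with at least 0.5 CPM, neighbours, the 3 genes most alike to each member, and markers. *Plg*, *Bex1*, *Egr1*, *Pdgfrb*, *Lrat* and *Mbp* were named after their values were seen. Some genes of the lists and of the family are not reported here. Positions are GRCm38, and promoters of 4 of the 6 members were found in RefSeq.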

Additional observations from a re-analysis of the deposited data

How the results depend on the processing

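Scaling mattered most. With libraries scaled by their totals alone, 7289 genes were called higher and 970 lower (50.9% of calls higher became 88.3%), and the counts of higher and lower calls became 4 and 0 for the co-receptors, 5 and 0 for the processing proteases, 25 and 1 for the Trk list, 11 and 0 for the p75 list, with 4 higher among the other neurotrophic genes. With upper-quartile scaling 64.7% of calls were higher, the median over all genes was 0.143, 13 Trk genes were higher, and 2 proteases and 2 p75 genes were lower. With genes of at least 1 count in any library, 2 other neurotrophic genes were higher. With at least 10 counts in every library there were 0, and *Ntf3* and *Ntf5* were left out. The replicate numbers did not pair the livers (correlations of same-numbered deviations 0.04, 0.03 and -0.03), and with the replicate block 3084 genes were called higher and 3016 lower. Leaving out each library gave 2 to 4 lower proteases, 2 to 5 lower p75 genes, 0 to 1 lower early genes and 1 to 2 higher other neurotrophic genes. The low end came without control replicate 2, control replicate 3 or g*Spns1*-cKO replicate 3 for proteases and without g*Spns1*-cKO replicate 3 for p75 genes, and the high end for early and other neurotrophic genes without g*Spns1*-cKO replicate 2. *Sort1*, at 0.00, changed sign while staying within its error, with 0.00 by DESeq2 size factors and by the DESeq2 test, -0.01 with genes of at least 1 count in any library, and -0.10 to 0.05 without each library, all uncalled. *Kidins220* turned to 0.31 by library totals, and *Sorcs2* ran from -0.24 to 0.19 without each library. The cause of these shifts was not tested. *Ntf3*, *Ntf5*, *Ngfr* and *Bdnf* kept their direction in all settings that gave a value. Depth limits *Ntf5* and *Ntrk3*, which are near the floor.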
